A study of Mus musculus with 19 samples.

Results

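The genes described here build, fill and reshape the extracellular matrix of the liver, or mark the stellate cells that make much of it. The list holds 43 genes, and they were taken by name: 9 fibrillar and interstitial collagens, 8 genes of the basement membrane, glycoproteins, elastic fibre proteins and proteoglycans, enzymes and inhibitors that remodel matrix, and 9 markers of stellate cells and myofibroblasts. Where a gene had several probe sets, the brightest one on average stands for it. Of the 43 genes, 41 could be tested among 22180 genes in all. No probe set carried Fbn1 as its only symbol, and Loxl2 shared its probe sets with another gene, so both were not analysed here. The genes that the results turn on were read by probe sets 17397575 (Postn), 17236800 (Dcn), 17236811 (Lum), 17445922 (Reln), 17311551 (Col14a1) and 17242232 (Col18a1).

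The RNA came from whole livers of mice that were 2 to 3 months old and had eaten a high fat diet (HFD) or a normal diet (ND) for 4 weeks, with 1 Affymetrix array per animal. The groups were TG HFD with 4 arrays, TG ND with 3, KO HFD with 3, KO ND with 3, WT HFD with 3 and WT ND with 3. The labels spell out none of the genotype codes, and they name no transgene promoter, deleted exon, strain or sex. The title of the series names Kcp, the Kielin/chordin-like protein, which is secreted and acts on BMP and TGF-beta ligands. With no litter, batch or hour of harvest given, genotype and diet cannot be told apart from a cohort.

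Kcp itself lay between 5.35 and 5.72 (log2) in TG ND, between 5.52 and 5.81 in TG HFD, and between 1.64 and 2.30 in KO ND, against 2.41 to 2.82 in WT ND. On HFD it lay between 1.90 and 2.17 in KO, against 1.77 to 2.51 in WT. It was 3.01 ± 0.20 (SE) higher in TG than in WT on ND and 3.43 ± 0.18 higher on HFD. In KO it was 0.52 ± 0.20 below WT on ND and did not pass the test there (limma, adjusted p = 0.215), and which part of the transcript its probe set covers is not known here. Hepatocyte markers averaged between 11.26 and 11.56 in every array. Against arrays of other groups the mean correlation was lowest, at 0.963, for WT HFD replicate 1, followed by 0.965 for TG HFD replicate 2.

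Stellate cells sit between the hepatocytes and the sinusoidal endothelium. At rest they store vitamin A as retinyl esters, and after injury they turn into contractile myofibroblasts that lay down fibrillar collagen, which is how liver fibrosis arises. Around the resting sinusoid the matrix is sparse, with basement membrane proteins, fibronectin and small proteoglycans rather than thick collagen fibres. In these arrays of whole liver, more cells of a type and more RNA per cell cannot be told apart.

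Values are log2 and differences are between means of groups, so a difference of 1 is a 2-fold change. A gene is said to have risen, fallen or changed where its two-sided adjusted p from 1 limma model over all 19 arrays was under 0.05, adjusted by Benjamini-Hochberg over the 22180 genes in each comparison. For stability, the arrays of the groups compared were left out 1 at a time, and arrays of other groups were always kept. A call that held without any single array passed each time. Some differences that passed only with 1 array left out are given too. The array left out then lay towards the other group, so its loss by itself widened the difference, and such a pass is no further support. Below a value of 2, where 56.5% of all genes and 11 of the 41 members had their mean, background can hide differences. Those 11 were Col5a1, Col5a2, Col15a1, Lama2, Eln, Thbs1, Lox, Loxl1, Timp1, Mmp13 and Ngfr.

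**Figure D1:**
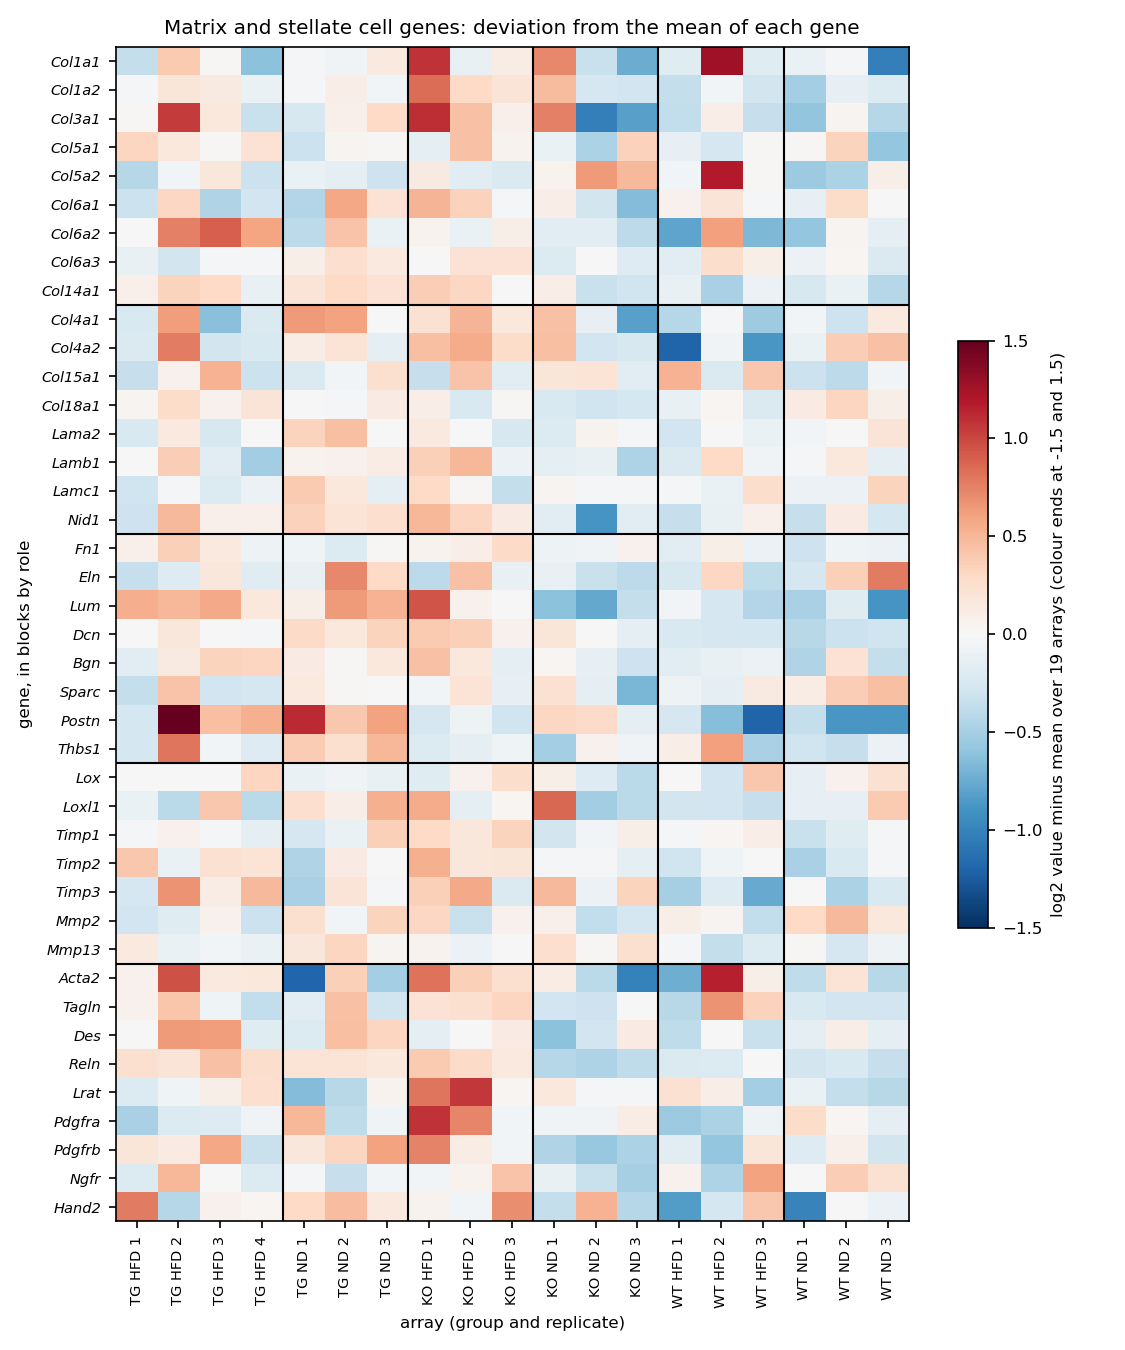
Heat map of the 41 genes in 19 arrays. Each row is a gene and each column an array, with blocks by role and by group, and colour gives the log2 value minus the mean of that gene over all arrays (white is 0, colour ends at 1.5 in either direction). Postn, Lum and Reln are red in most TG columns, and the first KO HFD column is red over many rows.

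TG livers differed from WT livers in a small number of matrix genes, and those that passed the test were all higher. Averaged over both diets, 5 of the 41 genes rose in TG, namely Postn, Lum, Dcn, Col14a1 and Reln, and none fell, where 4.68% of all genes changed and 2.72% rose. On ND alone Postn, Dcn and Reln rose, 3 of 41, where 1.3% of all genes changed and 0.924% rose. On HFD alone Postn and Reln rose, 2 of 41, where 3.57% of all genes changed and 1.68% rose. At an unadjusted p under 0.05 the counts were 14 of 41 over both diets, 8 on ND and 11 on HFD, against 16.1%, 9.97% and 15.2% of all genes.

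The median TG difference of the 41 genes was 0.14 over both diets, 0.21 on ND and 0.18 on HFD, and that of all genes was -0.0065, -0.0033 and -0.0041. On ND 31 of the 41 genes lay above 0. There every TG array was above every WT array for 12 genes and below for 1, which held for 8.14% and 7.62% of all genes. On HFD 27 lay above 0, and TG arrays were all above for 4 genes and all below for none, against 5.95% and 6.39% of all genes. Over both diets TG arrays were all above WT for 3 genes, Dcn, Lum and Reln, and all below for none, against 1.29% and 0.676% of all genes.

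In KO livers 1 gene of the 41 differed from WT over both diets and another on ND. Dcn rose over both diets, 1 of 41, where 1.76% of all genes changed and 0.929% rose. On ND Col18a1 fell, 1 of 41, where 2.98% of all genes changed and 1.6% fell. On HFD none of the 41 passed the limma test, where 0.338% of all genes did. At an unadjusted p under 0.05 the counts were 11 of 41 over both diets, 9 on ND and 11 on HFD, against 11.5%, 13.3% and 8.32% of all genes.

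On HFD 37 of the 41 KO differences lay above 0 with a median of 0.25, where the median of all genes was -0.0045. KO HFD arrays were all above WT HFD arrays for 12 of the 41 genes and all below for none, against 6.6% and 6.56% of all genes. On ND 18 of the 41 lay above 0 with a median of -0.04, and KO arrays were all above for 4 genes and all below for 5, against 8.83% and 9.27% of all genes. Over both diets KO arrays were all above for 1 gene, Dcn, and all below for none, against 0.446% and 0.473% of all genes. The TG and the KO comparisons share the WT arrays, so a WT array that is low in a gene raises both differences.

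HFD livers differed from ND livers in 1 of the 41 genes. Reln rose on HFD in KO, 1 of 41, where 0.803% of all genes changed and 0.46% rose. It also rose in the mean of 3 genotypes, 1 of 41, where 1.75% of all genes changed and 0.933% rose. None of the 41 passed the limma test for diet in TG, where 0.906% of all genes did, or in WT, where 1.32% did. At an unadjusted p under 0.05 the counts were 16 of 41 in KO, 3 in TG, 4 in WT and 9 in the mean of 3 genotypes, against 11.3%, 10.1%, 11.2% and 12.6% of all genes.

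In KO 35 of the 41 diet differences lay above 0 with a median of 0.29, where the median of all genes was 0.0048. KO HFD arrays were all above KO ND arrays for 11 of the 41 genes and all below for none, against 9.22% and 7.83% of all genes. In TG the median was -0.05, and the arrays were all above for 1 gene and all below for 1, against 4.24% and 5.25% of all genes. In WT the median was 0.03, and the arrays were all above for 2 genes and all below for 3, against 7.73% and 7.4% of all genes.

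Whether the effect of diet differed between genotypes was tested directly. None of the 41 genes passed for the diet effect in KO minus that in WT, where 0.825% of all genes did, and 8 had an unadjusted p under 0.05, against 10.9% of all genes. The median of that difference was 0.36 over the 41 genes and 0.0003 over all genes. For the diet effect in TG minus that in WT none passed either, where 0.221% of all genes did, 3 had an unadjusted p under 0.05, against 7.87%, and the median was -0.062.

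A clock score was taken per array and used as a covariate in an alternative fit. It sets 9 clock genes with an evening peak against 5 with a morning peak, as a difference of their mean log2 values, and it moved with the groups. It lay between 1.97 and 2.32 in KO HFD, 1.46 and 1.84 in KO ND, 1.59 and 2.27 in TG HFD, -1.64 and -0.82 in TG ND, 1.83 and 2.10 in WT HFD, and -1.66 and 0.11 in WT ND. On ND it thus separated KO from WT, and in all 3 genotypes it separated HFD from ND, by a smaller gap in KO than in TG and WT. The labels give no hour of harvest.

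**Figure D2:**
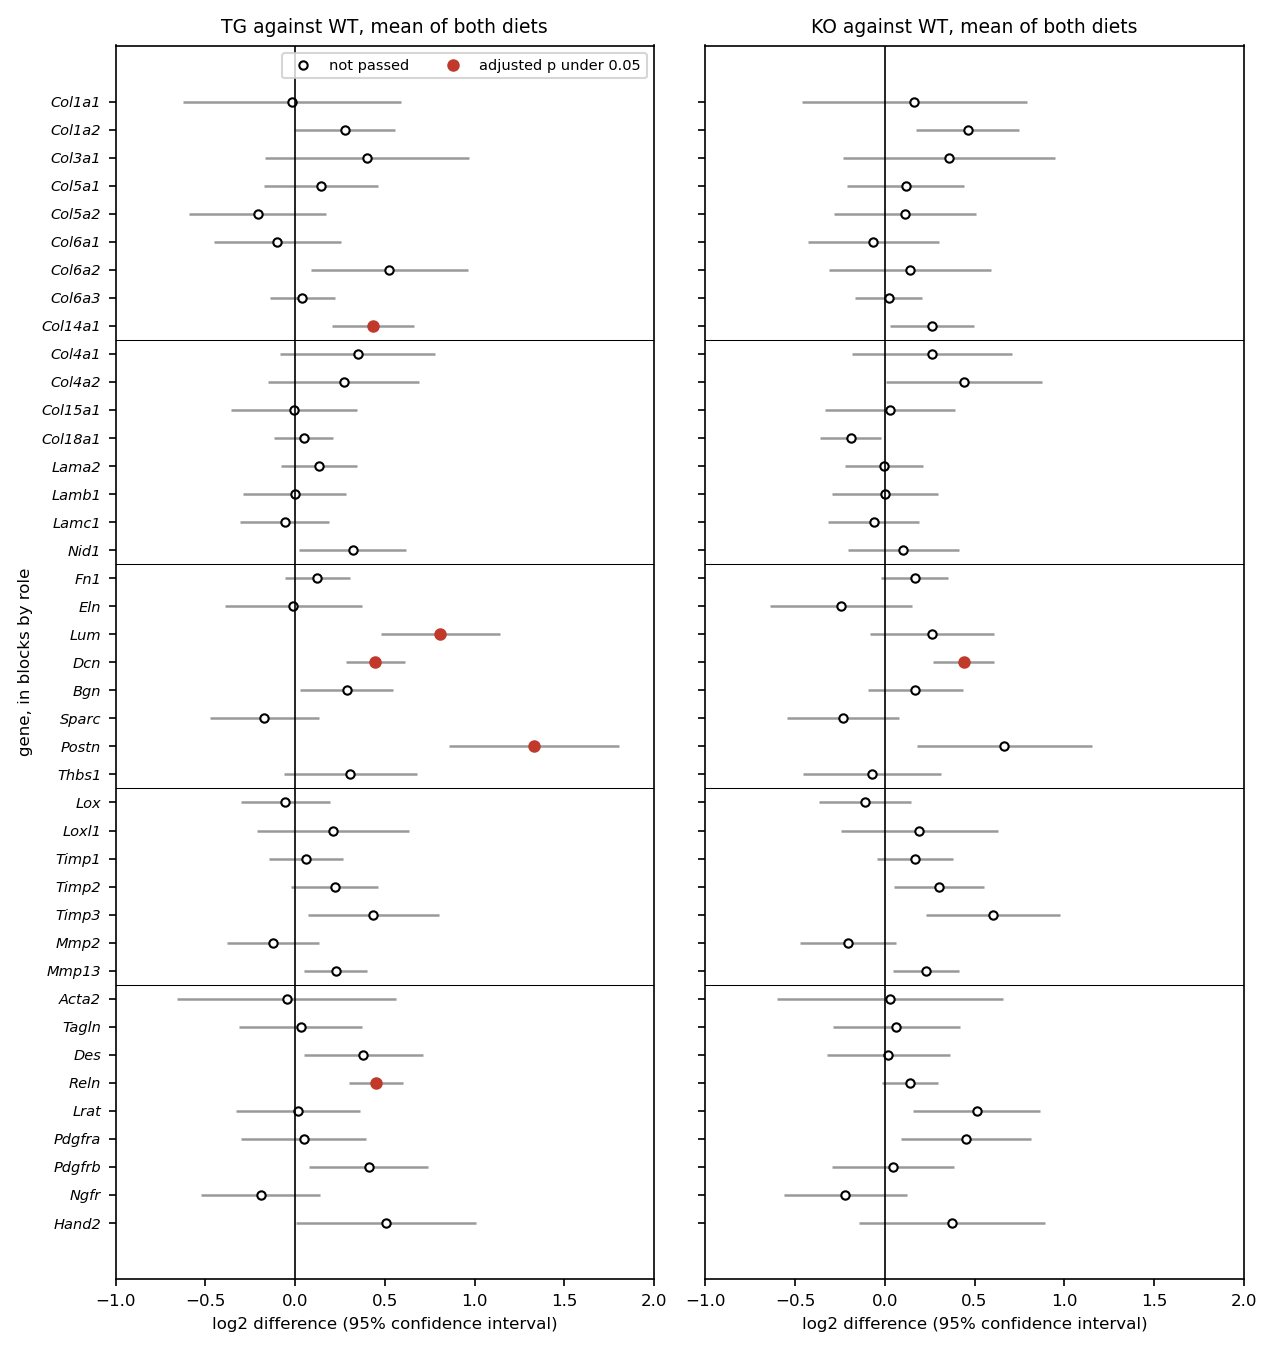
Difference between genotypes for each gene. Points are log2 differences of TG (left) and KO (right) from WT, averaged over both diets, with 95% confidence intervals as bars and filled points where the adjusted p was under 0.05. Col14a1, Lum, Dcn, Postn and Reln are filled on the left and Dcn alone on the right.

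Among the glycoproteins and proteoglycans, Postn showed the largest difference of the 41 genes between TG and WT livers in the mean of both diets. Postn encodes periostin, a secreted adapter between integrins and collagen fibrils that is known from healing and fibrotic tissue. Its values were 5.48, 4.76 and 4.96 in TG ND, against 4.00, 3.49 and 3.49 in WT ND. On HFD they were 4.10, 5.89, 4.80 and 4.89 in TG, against 4.11, 3.72 and 3.15 in WT. All TG arrays lay above WT on ND, while on HFD the lowest TG array was level with the highest WT array, and TG HFD replicate 2 was the highest of all 19. The difference was 1.41 ± 0.33 (SE, adjusted p = 0.0393) on ND, which is 2.66-fold, and 1.26 ± 0.31 (adjusted p = 0.0275) on HFD. In the mean of both diets it was 1.33 ± 0.22 (adjusted p = 0.00131), and this call held without any single array.

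The calls of Postn within 1 diet were less stable. On ND the call was lost without WT ND replicate 2 or 3 or any of the 3 TG ND arrays, with an adjusted p of up to 0.179, with the clock score as covariate (difference 1.37, adjusted p = 0.118) and under quantile normalization (1.38, adjusted p = 0.0553). On HFD it was lost without WT HFD replicate 2 (adjusted p = 0.0634), WT HFD replicate 3 (0.150) or TG HFD replicate 2 (0.0638), and without the last the difference was 0.93. Fitted on the compared arrays alone, the call on HFD was lost too (adjusted p = 0.198). In KO ND Postn had 4.67, 4.64 and 4.21, all above WT ND, and the difference of 0.85 ± 0.33 did not pass (adjusted p = 0.228). KO HFD arrays had 4.10, 4.28 and 4.06 and overlapped WT HFD. Over both diets the KO difference was 0.67 (adjusted p = 0.205), and with WT HFD replicate 1 and TG HFD replicate 2 both left out it was 0.78 and passed (adjusted p = 0.0337).

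The upstream sequences of Postn and Reln are shown because these were the most strongly changed matrix gene and the most strongly changed stellate marker in TG livers. Both are from RefSeq on the build GRCm38.p6, run 5′ to 3′ on the strand of the gene and end at the base before the annotated start. Capitals mark TATAAA, the core of a TATA box, and GGGCGG, the core of the GC box that Sp1 is known to bind, searched on both strands.
Postn, chr3:54360857-54361106, plus strand: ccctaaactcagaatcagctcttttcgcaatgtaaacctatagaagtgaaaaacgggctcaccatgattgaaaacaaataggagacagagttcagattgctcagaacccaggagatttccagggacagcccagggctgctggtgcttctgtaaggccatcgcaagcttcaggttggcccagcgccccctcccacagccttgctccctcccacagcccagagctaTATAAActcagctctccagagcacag
Reln, chr5:22344706-22344955, minus strand: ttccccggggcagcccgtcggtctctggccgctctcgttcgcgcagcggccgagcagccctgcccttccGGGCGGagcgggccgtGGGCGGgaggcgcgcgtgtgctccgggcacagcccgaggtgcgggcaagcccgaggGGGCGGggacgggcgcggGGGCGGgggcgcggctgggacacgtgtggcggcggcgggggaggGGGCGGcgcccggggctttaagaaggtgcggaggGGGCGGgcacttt
The 2 windows of 250 bases are unlike each other. That of Postn holds TATAAA with its first base 26 bases before the start, no GGGCGG and 52.0% G or C. That of Reln holds GGGCGG 6 times, no TATAAA and 80.0% G or C, where the median of all windows was 52.4%. Another annotated start of Postn, with the window chr3:54359017-54359266, has neither motif. Among 32851 windows 12.4% held TATAAA and 32.7% held GGGCGG. Windows were given for 28 of the 43 genes, 31 in all, of which 3 held TATAAA (Col3a1, Mmp13 and Postn) and 18 held GGGCGG. These matches describe the letters and show no binding.

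Dcn and Lum rose together in TG livers. They encode decorin and lumican, small leucine-rich proteoglycans that bind collagen fibrils and set their thickness, and decorin also binds TGF-beta. In RefSeq the genes are neighbours on chromosome 10. Dcn had 8.36, 8.23 and 8.41 in TG ND and 8.08, 8.24, 8.08 and 8.04 in TG HFD, against 7.66, 7.75 and 7.77 in WT ND and 7.84, 7.81 and 7.81 in WT HFD. Lum had 3.41, 3.96 and 3.84 in TG ND and 3.86, 3.81, 3.88 and 3.47 in TG HFD, against 2.83, 3.13 and 2.43 in WT ND and 3.28, 3.06 and 2.88 in WT HFD. For both genes all 7 TG arrays lay above all 6 WT arrays. The difference over both diets was 0.45 ± 0.078 (SE, adjusted p = 0.00187) for Dcn and 0.81 ± 0.16 (adjusted p = 0.00455) for Lum, and both calls held without any single array.

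Within 1 diet, Dcn rose in TG on ND by 0.60 ± 0.11 (adjusted p = 0.00935). This call was lost without TG ND replicate 3 (adjusted p = 0.0571) and with the compared arrays alone (0.0542). On HFD the difference of Dcn was 0.29 ± 0.11 (adjusted p = 0.172). Lum just missed the threshold on ND, with 0.94 ± 0.23 (adjusted p = 0.0556), and passed without TG ND replicate 1, with 1.10 (adjusted p = 0.0441). On HFD its difference was 0.68 ± 0.22 (adjusted p = 0.100).

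Dcn also stood higher in KO livers than in WT livers. KO ND arrays had 8.25, 8.07 and 7.94, and KO HFD arrays 8.46, 8.43 and 8.13, all above every WT array. The difference over both diets was 0.44 ± 0.081 (SE, adjusted p = 0.00670). It held without any single array. With the clock score as covariate the difference was 0.50 and no longer passed (adjusted p = 0.256). On HFD alone it was 0.52 ± 0.11 and did not pass (adjusted p = 0.0681), but passed without KO HFD replicate 3 (adjusted p = 0.0335). Lum had 4.27, 3.38 and 3.33 in KO HFD, against 2.70, 2.55 and 2.96 in KO ND. The arrays did not overlap, and the difference of 0.92 ± 0.23 did not pass (adjusted p = 0.0750).

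The other genes of this role did not pass in any comparison. Bgn, for the related proteoglycan biglycan, had values between 8.05 and 8.94 over the 19 arrays and was 0.29 ± 0.12 higher in TG over both diets (adjusted p = 0.242). On its other, dimmer probe set TG ND had 3.78, 3.85 and 4.28, against 3.66, 4.53 and 4.08 in WT ND. There TG HFD had 3.73, 3.72, 3.21 and 3.73, against 3.24, 3.66 and 3.66 in WT HFD, so TG and WT overlapped on both diets. Fn1, for fibronectin, which hepatocytes also secrete, lay between 10.34 and 11.01 and differed from WT by 0.12 in TG and 0.17 in KO over both diets. Sparc, for a collagen-binding glycoprotein, was 0.51 ± 0.21 lower in KO than in WT on ND (adjusted p = 0.283). Eln, for elastin, had -0.57 ± 0.27 in KO against WT on ND (adjusted p = 0.357), and Thbs1, for thrombospondin 1, had 0.62 ± 0.26 in TG against WT on ND (adjusted p = 0.401). Eln and Thbs1 were both dim.

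**Figure D3:**
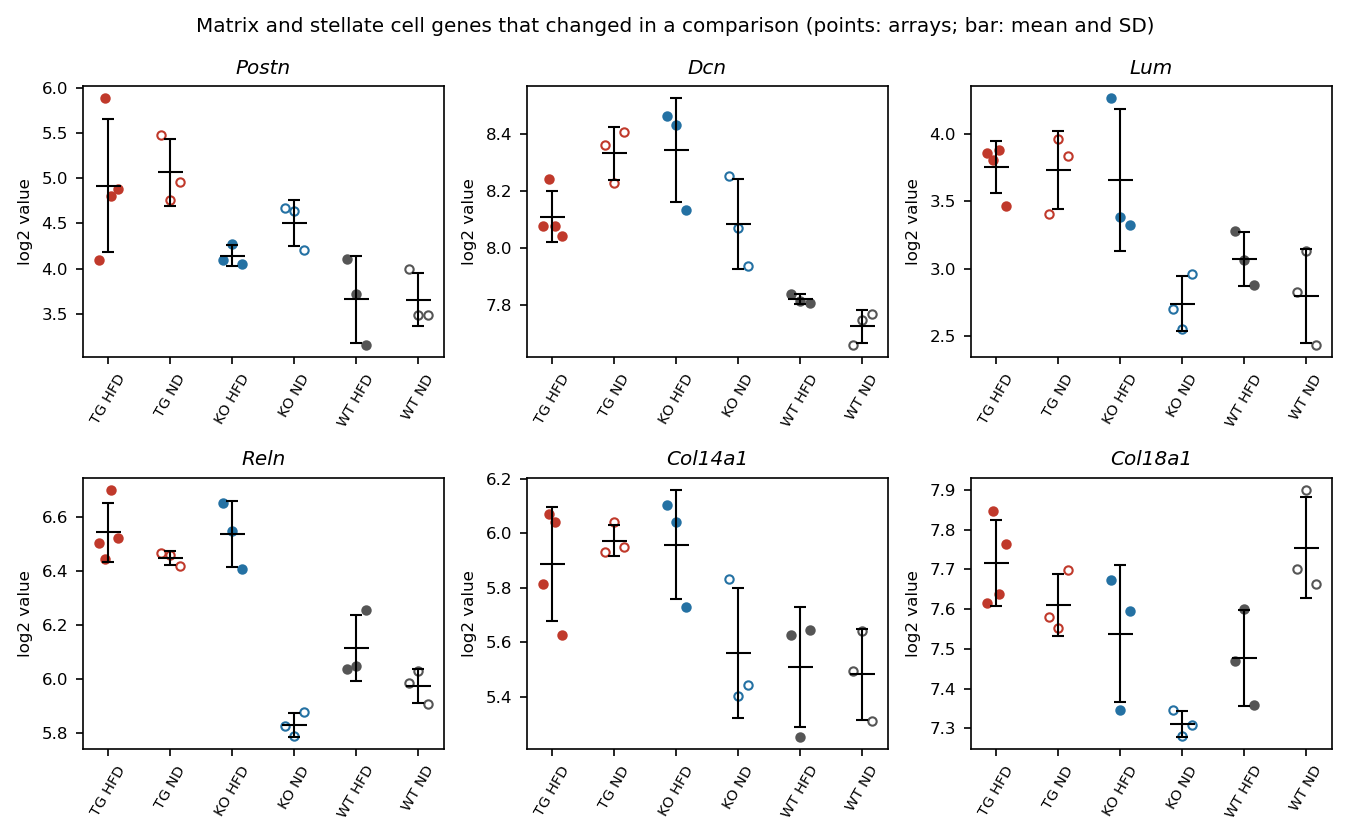
Values of the 6 genes that changed in at least 1 comparison. Each point is 1 array, with the log2 value on the y axis (axes do not start at 0) and groups on the x axis, filled for HFD and open for ND, and bars give the mean and SD of the group. For Dcn, Lum and Reln all TG points lie above all WT points, and for Reln the KO HFD points lie far above the KO ND points.

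Among stellate cell markers Reln alone changed. It encodes reelin, a large secreted glycoprotein that guides neurons in the developing brain and in liver is made by stellate cells. Reln had 6.47, 6.46 and 6.42 in TG ND and 6.50, 6.44, 6.70 and 6.52 in TG HFD, against 5.99, 6.03 and 5.91 in WT ND and 6.04, 6.05 and 6.25 in WT HFD. In KO livers it had 6.65, 6.55 and 6.41 on HFD, against 5.83, 5.79 and 5.88 on ND. All TG arrays and all KO HFD arrays lay above every WT array, while all KO ND arrays lay just below every WT ND array.

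Reln was 0.47 ± 0.10 (SE, adjusted p = 0.0280) higher in TG than in WT on ND and 0.43 ± 0.098 (adjusted p = 0.0183) higher on HFD. Leaving out any 1 of the 6 arrays ended the call on ND, with adjusted p between 0.0634 and 0.124, as did the clock score as covariate, where the difference was 0.46 (adjusted p = 0.0845). On HFD leaving out WT HFD replicate 1 (adjusted p = 0.0902) or WT HFD replicate 2 (0.0693) did so. With WT HFD replicate 1 and TG HFD replicate 2 both left out the call on HFD was lost too (0.0999). Fitted on the compared arrays alone, both calls were lost, with an adjusted p of 0.108 on ND and 0.171 on HFD. Over both diets the difference was 0.45 ± 0.072 (adjusted p = 0.000768) and held without any single array. The spread of Reln within groups was among the smallest of all genes, with an SD of 0.092 and at percentile 2.0, and differences of this size passed.

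The diet effect on Reln in KO livers was 0.71 ± 0.10 (SE, adjusted p = 0.00480), 1.63-fold, and held without any single array. Fitted on the KO arrays alone it did not pass (adjusted p = 0.0627). In TG the diet effect was 0.09 and in WT 0.14, neither past the test. The diet effect in KO minus that in WT was 0.57 ± 0.15 and did not pass (adjusted p = 0.0895). KO HFD arrays stood 0.42 ± 0.10 above WT HFD arrays, which did not pass either (adjusted p = 0.116). In the mean of 3 genotypes Reln was 0.31 ± 0.059 higher on HFD than on ND (adjusted p = 0.00823). With the clock score as covariate this difference was 0.35 and no longer passed, while the call in KO was kept with it.

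All 9 stellate markers had a higher mean on HFD than on ND in KO livers, with a median difference of 0.59, against 0.0048 for all genes. In TG the median was 0.08 and in WT 0.13. The mean of the 9 markers per array lay between 3.86 and 4.09 in KO HFD, against 3.36 to 3.44 in KO ND, and the arrays did not overlap. It lay between 3.60 and 3.89 in TG HFD, against 3.53 to 3.77 in TG ND, and between 3.32 and 3.73 in WT HFD, against 3.42 to 3.64 in WT ND. Apart from Reln no marker passed the test. Macrophage markers had higher means on HFD in KO too, 11 of 11 with a median of 0.56 and none past the test. The mean of 11 matrix receptors lay between 3.98 and 4.05 in KO HFD, against 3.78 to 3.80 in KO ND, without overlap. That of 11 sinusoidal endothelial markers lay between 5.59 and 6.03, against 5.57 to 5.82, and overlapped. The part of macrophages or other cells in the stellate marker differences was not tested.

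Receptors for platelet-derived growth factor, the signal that drives stellate cells to divide, were higher in the means of KO HFD livers without passing the test. Pdgfrb had 4.68, 4.05 and 3.90 in KO HFD, against 3.49, 3.37 and 3.47 in KO ND, a difference of 0.77 ± 0.23 (adjusted p = 0.147). Pdgfra had 5.61, 5.26 and 4.50 in KO HFD, against 3.98, 4.06 and 4.46 in WT HFD, a difference of 0.96 ± 0.24 (adjusted p = 0.129). In these comparisons the arrays did not overlap, and KO HFD replicate 1 was the highest. In the other comparison of each receptor they did overlap: KO HFD against WT HFD gave 0.46 for Pdgfrb (adjusted p = 0.643), and KO HFD against KO ND gave 0.59 for Pdgfra (adjusted p = 0.348). Without KO HFD replicate 3 the Pdgfra difference was 1.27 and passed (adjusted p = 0.0166).

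Lrat, for the enzyme that makes the retinyl esters stored in resting stellate cells, had 6.67, 6.92 and 5.88 in KO HFD, against 6.09, 5.96 and 5.35 in WT HFD. The groups overlapped, and over both diets the difference of 0.51 ± 0.17 between KO and WT did not pass (adjusted p = 0.172). Without KO HFD replicate 3 it was 0.66 and passed (adjusted p = 0.0310), as did the diet difference in the mean of 3 genotypes, with 0.49 (adjusted p = 0.0399). In TG Lrat differed from WT by 0.02, with a 95% confidence interval from -0.33 to 0.36.

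No marker of contractile myofibroblasts passed the test. Acta2, for smooth muscle actin, had 4.80, 4.34 and 4.23 in KO HFD, against 4.09, 3.58 and 2.97 in KO ND, a difference of 0.91 ± 0.42 (adjusted p = 0.429). WT HFD arrays had 3.26, 5.15 and 4.08, against 3.61, 4.19 and 3.57 in WT ND, so that WT HFD replicate 2 was higher than any KO array. The SD of Acta2 within groups was 0.60, at percentile 98.8 of all genes. Over both diets Acta2 differed from WT by -0.05 in TG (95% confidence interval -0.66 to 0.56) and by 0.03 in KO (-0.60 to 0.66). Tagln, for transgelin, lay between 1.63 and 2.72 and Des, for desmin, between 1.44 and 2.70, and the differences of both from WT over both diets did not pass.

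A list of 5 further smooth muscle genes was high in some of the same arrays. Its mean was 2.27 in TG HFD replicate 2, 2.19 in WT HFD replicate 2, 2.07 in KO HFD replicate 1 and 2.03 in WT ND replicate 2, each the highest array of its group and each also the highest for Acta2 there. In KO ND the highest arrays of the list and of Acta2 differed. The part of vessel walls in the values of Acta2 was not tested. Ngfr, for the low-affinity neurotrophin receptor, lay between 1.36 and 2.45 and did not pass in any comparison. Hand2, for a transcription factor of mesenchymal cells, lay between 1.32 and 3.09 and did not pass either.

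**Figure D4:**
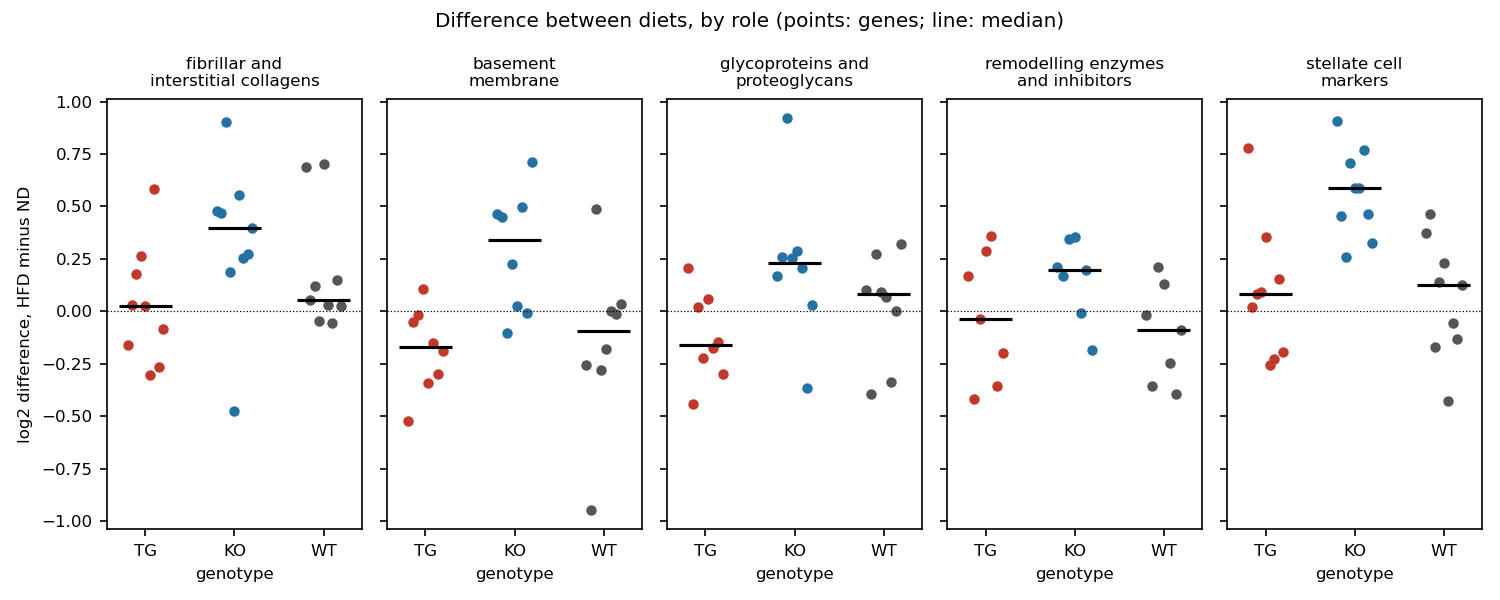
Difference between diets by role and genotype. Points are genes, the y axis is the log2 difference of HFD from ND, panels are roles, and lines are medians. In the panel of stellate markers all 9 KO points lie above 0 with a median of 0.59.

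The collagens that form the fibrils of scar tissue did not pass the test in any comparison. Col1a1, for the main chain of type I collagen, had 3.20, 3.95, 3.58 and 2.95 in TG HFD and 3.53, 3.50 and 3.71 in TG ND. It had 4.64, 3.45 and 3.67 in KO HFD and 4.28, 3.22 and 2.82 in KO ND, against 3.38, 4.82 and 3.37 in WT HFD and 3.46, 3.53 and 2.53 in WT ND. Single arrays stood out in 3 groups, KO HFD replicate 1, KO ND replicate 1 and WT HFD replicate 2, and all groups overlapped. The difference from WT over both diets was -0.02 in TG (95% confidence interval -0.62 to 0.59) and 0.16 in KO (-0.46 to 0.79). Col3a1, for type III collagen, had 5.13, 4.47 and 4.10 in KO HFD, against 4.78, 3.00 and 3.21 in KO ND, a difference of 0.90 ± 0.40 (adjusted p = 0.392). Both genes had a spread within groups at percentiles 98.7 and 98.4 of all genes, which limits what these arrays can show.

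Col1a2, for the other chain of type I collagen, varied less. It had 3.95, 3.40 and 3.30 in KO HFD, against 2.75, 3.06 and 2.83 in WT HFD, with no overlap and a difference of 0.67 ± 0.19 that did not pass (adjusted p = 0.214). The fibril-associated Col14a1, whose product coats collagen fibrils, was the only collagen of this role to change. It had 5.93, 6.04 and 5.95 in TG ND and 5.81, 6.07, 6.04 and 5.63 in TG HFD, against 5.50, 5.64 and 5.31 in WT ND and 5.63, 5.25 and 5.64 in WT HFD. TG lay above WT on ND, and on HFD 1 TG array reached down to the WT arrays. Over both diets the difference was 0.44 ± 0.11 (SE, adjusted p = 0.0245). The call was lost with the clock score as covariate, where the difference was 0.39 (adjusted p = 0.0873), and with WT HFD replicate 1 and TG HFD replicate 2 both left out, where it was 0.43 (adjusted p = 0.0575). It was also lost without WT ND replicate 3 (adjusted p = 0.0752), TG ND replicate 2 (0.0599), TG ND replicate 3 (0.0502) or WT HFD replicate 2 (0.0699).

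Type V collagen, which starts fibrils, and type VI collagen, which forms beaded microfibrils, did not pass. Col5a1 and Col5a2 were dim, and Col5a2 had 2.34 in WT HFD replicate 2, against 0.60 to 1.78 in the other 18 arrays. Col6a2 had 2.03, 2.79, 2.93 and 2.63 in TG HFD, against 1.24, 2.65 and 1.36 in WT HFD, a difference of 0.85 ± 0.29 (adjusted p = 0.127). Here WT HFD replicate 2 alone lay within the TG range, and without it the difference was 1.29 (adjusted p = 0.00564), and over both diets 0.75 (adjusted p = 0.0121), so that both passed. The WT HFD arrays then left, with 1.24 and 1.36, lay below 2, where background can hide differences. Col6a1 and Col6a3 differed from WT by -0.10 and 0.04 in TG over both diets.

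In the basement membrane 1 gene changed. Col18a1 encodes the type XVIII collagen of vessel and sinusoid walls, from which the fragment endostatin is cut. It had 7.35, 7.28 and 7.31 in KO ND, against 7.70, 7.90 and 7.66 in WT ND, and all KO arrays lay below WT. The difference was -0.44 ± 0.12 (SE, adjusted p = 0.0440), and any 1 of the 6 arrays left out ended the call, with adjusted p between 0.067 and 0.194. With the clock score as covariate the difference was -0.29 and the adjusted p was 0.922, and with the compared arrays alone it was 0.137. On HFD KO arrays had 7.67, 7.35 and 7.60 and overlapped the WT arrays with 7.47, 7.60 and 7.36.

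Col4a1 and Col4a2 encode the chains of type IV collagen, the scaffold of every basement membrane, and are read from head-to-head starts with upstream windows at chr8:11312827-11313076 and chr8:11312555-11312804. Col4a2 had 3.69, 3.79 and 3.50 in KO HFD, against 2.03, 3.18 and 2.35 in WT HFD. The groups did not overlap, and the difference of 1.14 ± 0.29 did not pass (adjusted p = 0.139). Without WT HFD replicate 2, the highest of its group, it was 1.47 and passed (adjusted p = 0.0336). In WT HFD against WT ND, with 3.13, 3.60 and 3.67, Col4a2 differed by -0.94 ± 0.29 (adjusted p = 0.158), and the arrays overlapped. Without WT HFD replicate 2 it differed by -1.27 (adjusted p = 0.0343). The diet effect in KO minus that in WT was then 1.72 (adjusted p = 0.0414), against 1.40 with all arrays (adjusted p = 0.147), and the TG difference on HFD was 1.05 (adjusted p = 0.0436), against 0.72 with all arrays (adjusted p = 0.187). Leaving out the highest WT HFD array by itself widens all of these differences, so the passes are no further support. Col4a1 had 3.62, 3.90 and 3.55 in KO HFD, against 2.97, 3.38 and 2.87 in WT HFD, a difference of 0.62 that did not pass.

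Nid1, for nidogen, the linker between laminin and type IV collagen, had 5.91, 5.74 and 5.53 in KO HFD, against 5.26, 4.53 and 5.26 in KO ND. The arrays did not overlap, and the difference of 0.71 ± 0.21 did not pass (adjusted p = 0.134). On the other, dimmer probe set of Nid1 they did overlap, with 4.30, 4.43 and 3.72 in KO HFD against 3.91, 3.52 and 3.02 in KO ND. The laminin chain gene Lamb1 differed by 0.50 in the same comparison (adjusted p = 0.323), Lamc1 by -0.01 and Lama2 by 0.03. Col15a1 was dim, between 1.21 and 2.12. The median diet difference of the 8 genes of this role was 0.34 in KO, against -0.17 in TG and -0.09 in WT.

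No enzyme or inhibitor of matrix remodelling changed. Timp3, for an inhibitor of metalloproteinases that stays bound to matrix, had 4.86, 5.08 and 4.29 in KO HFD and 4.99, 4.42 and 4.84 in KO ND, against 4.00, 4.31 and 3.75 in WT HFD and 4.50, 4.03 and 4.28 in WT ND. The groups overlapped, with 0.60 ± 0.18 over both diets (adjusted p = 0.113). In TG the difference was 0.44 ± 0.17 over both diets (adjusted p = 0.199), and on HFD it was 0.74, which passed without TG HFD replicate 1, with 0.91 (adjusted p = 0.0458). Timp2 was 0.30 ± 0.12 higher in KO than in WT over both diets (adjusted p = 0.296). Timp1, which is known to rise early in liver fibrosis, stayed between 0.24 and 0.93 in all arrays.

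Mmp2, for the gelatinase that stellate cells make, had 2.24, 1.80 and 1.91 in KO ND, against 2.47, 2.65 and 2.33 in WT ND. All KO arrays lay below WT, and the difference of -0.50 ± 0.18 did not pass (adjusted p = 0.177). The collagenase gene Mmp13 and the crosslinking enzyme genes Lox and Loxl1 were dim, with values of at most 0.96, 1.07 and 2.02.

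In each group 1 array was the highest for more of the 41 genes than any other array of that group. KO ND replicate 1 was the highest of its 3 arrays for 25 of the 41 genes, and KO HFD replicate 1 and WT ND replicate 2 for 21 each. WT HFD replicate 2 was so for 19 and TG ND replicate 2 for 18, and TG HFD replicate 2 was the highest of its 4 for 23. In WT ND, WT HFD and TG ND replicate 3 was the highest for 14. The same counts over all genes were not made, so a trait of the members cannot be told apart from one of the whole array. The mean of all 41 genes per array lay between 3.67 and 3.92 in KO HFD, against 3.37 to 3.64 in KO ND, and between 3.54 and 3.89 in TG HFD, against 3.63 to 3.78 in TG ND. In WT it lay between 3.39 and 3.64 on HFD, against 3.40 to 3.58 on ND.

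The genes that supply and sense the matrix were counted beside the members. On ND, of 13 genes of profibrotic ligands, receptors and targets, Tgfbr2, a TGF-beta receptor, rose in TG by 1.04 (adjusted p = 0.00217), and of 11 matrix receptors Cd44, for the hyaluronan receptor, rose by 1.22 (adjusted p = 0.0393). On HFD Tgfb1 rose in TG by 0.98 (adjusted p = 0.0123), and of 13 collagen processing genes Crtap, for a partner of prolyl hydroxylation, rose by 1.16 (adjusted p = 0.00521). Of all genes 0.924% rose in TG on ND and 1.68% on HFD. Over both diets 3 of the 13 collagen processing genes rose in TG, with P4ha1 by 0.63 and Colgalt1 by 0.50 beside Crtap, where 2.72% of all genes rose. Of 11 other genes of resting stellate cells Ecm1 rose in TG on both diets, by 0.67 and 0.61. Of the same list Cygb, for cytoglobin, rose on HFD in KO by 0.83 (adjusted p = 0.0157), where 0.46% of all genes rose. The mean of the 11 genes of this list lay between 4.67 and 4.89 in all TG arrays, against 4.32 to 4.57 in all WT arrays, and did not overlap. None of 10 other matrix proteases changed in any comparison of TG or KO with WT within 1 diet.

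KO livers on ND differed in targets of profibrotic signalling in both directions, where 2.98% of all genes changed. Ccn2, for connective tissue growth factor, rose by 1.36 (adjusted p = 0.0252), while the related Ccn1 fell by 1.49 (adjusted p = 0.0359). Tgfbr2 rose there by 0.80, and it also rose on HFD in WT by 1.22 (adjusted p = 0.000596), so that the 3 WT ND arrays, with 3.08, 3.21 and 3.35, lay below all others. P4ha2, for a collagen prolyl hydroxylase, rose in KO on ND by 0.55, while Itga5, for a fibronectin receptor chain, fell by 0.89. On HFD none of the 13 profibrotic, 13 collagen processing or 11 receptor genes changed in KO against WT, where 0.338% of all genes did. Whether the calls on ND hold with an array left out or with the clock score as covariate was not recorded. That score separated KO from WT on ND.

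Markers of macrophages moved with the TG genotype beside the matrix genes. Of 11 markers 9 rose in TG on ND and 9 on HFD, where 0.924% and 1.68% of all genes rose. Their median difference was 1.54 and 1.42, against -0.00329 and -0.00405 for all genes. Marco, for a scavenger receptor, rose by 3.21 on ND and by 3.75 on HFD, and Clec4f, which defines Kupffer cells, by 1.43 and 1.42. The mean of the 11 markers lay between 5.01 and 5.64 in all TG arrays, against 3.83 to 4.10 in all WT arrays. It lay between 4.17 and 4.62 in KO HFD and between 3.68 and 4.25 in KO ND. The mean of 11 sinusoidal endothelial markers lay between 5.96 and 6.07 in TG ND, against 5.64 to 5.81 in WT ND, and did not overlap. For 4 of the 11 markers all TG ND arrays were above WT ND, which held for 8.14% of all genes, and none passed the test. On HFD the mean lay between 5.67 and 6.04 in TG, against 5.47 to 5.72 in WT, and overlapped. Lyve1 was the sinusoidal marker that rose, by 1.52 on HFD (adjusted p = 0.0402). Gas6, of a list of 7 portal fibroblast and mesothelial markers, fell in TG on HFD by 1.35 (adjusted p = 0.000395), where 3.57% of all genes changed. It rose on HFD by 1.08 in WT (adjusted p = 0.00651) and by 1.04 in KO (adjusted p = 0.0192). Of all genes 1.32% changed with diet in WT and 0.803% in KO. In KO on ND Marco fell by 1.76, while 9 of the 11 macrophage markers had higher means than in WT, none of them past the test, and the median of the 11 was 0.21. The bile duct marker Sox9 fell there by 1.69, where 2.98% of all genes changed. In KO on HFD Folr2 rose by 1.30, where 0.338% of all genes changed. The part of these cells in the differences of Postn, Dcn, Lum, Col14a1, Col18a1 and Reln was not tested.

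**Figure D5:**
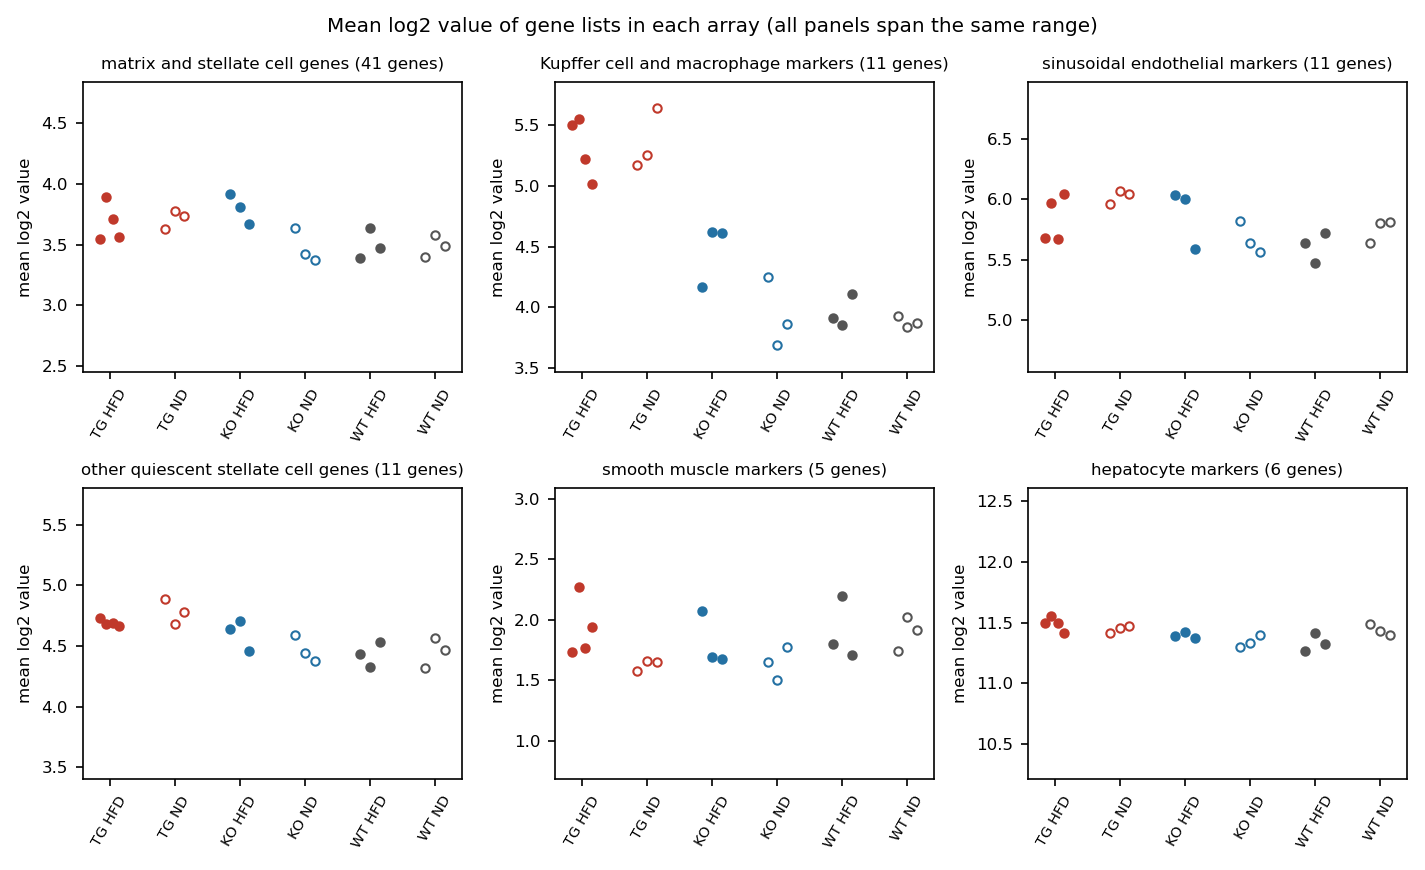
Mean level of gene lists in each array. Each point is the mean log2 value of the genes of a list in 1 array, filled for HFD and open for ND, and every panel spans the same range of the y axis. Macrophage markers of all TG arrays lie above all others, while the 41 matrix and stellate genes overlap between TG and WT.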

How the data were processed

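RNA of whole liver from 19 mice was measured on Affymetrix arrays, labelled with a WT Plus kit per the labels. The authors deposited normalized log2 values, 1 per probe set and array. As tools, the submitters' processing notes list affy, RMA and limma, without versions. Base 2 was inferred from these tools and from the values' range, and it is not stated in the sources used here. Array medians lay between 0.983 and 1.075.

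Of 41345 probe sets 23521 had 1 gene symbol, 1814 several and 16010 none, and those with 1 gave 22180 genes, each by its probe set of highest mean. Of the 23521, 23328 matched RefSeq through their identifiers and no symbol changed. The 6 group means were fitted over all arrays with limma 3.58.1 (lmFit, eBayes) under R 4.3.3; residual degrees of freedom were 13 and prior ones 4.76. P-values were two-sided and adjusted by Benjamini-Hochberg within each of 12 comparisons. No filter was set on dim genes. The procedure was tested on simulated data.

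The 41 members, the other lists and the tests were chosen with earlier results of these data known. Any member could be named, and from each other list up to 3 genes of smallest p per comparison, among those that changed. The rule was set for comparisons of 2 groups. P4ha1 and Colgalt1, which changed only in TG against WT over both diets, were named outside it. Replicates were taken as separate animals from the numbers in the titles, and arrays limit precision by their number. The alternatives left out dim genes or arrays, averaged probe sets, repeated quantile normalization, fitted the compared arrays alone, let the prior variance follow the mean, weighted arrays or took the clock score as covariate.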

Additional observations from a re-analysis of the deposited data

Results flagged for a closer look

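In TG HFD, the only group with 4 arrays, 1 array stood far from the other 3 for 4 of the 41 genes, measured by its gap over the range of the group. The gap was set against Dixon's 95% critical value, which by its definition chance exceeds in about 1 in 20 groups. No explanation was tested. TG HFD replicate 2 had 4.00 for Col4a2, where the others lay between 2.95 and 3.01. The same array had 5.88 for Sparc, with the others between 5.09 and 5.19, and 4.94 for Acta2, with the others between 4.05 and 4.14. TG HFD replicate 4 had 0.99 for Lox, with the others between 0.66 and 0.67, all in the range of dim genes.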

How the results depend on the processing

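No difference of a member that passed the test changed its direction under the settings tried. Genes of the other lists were not followed under these settings. Fitted on the compared arrays alone, the counts of members that changed were 1 for TG against WT on ND, 0 for TG against WT on HFD, 0 for KO against WT on ND and 0 for HFD against ND in KO. With the clock score as covariate they were 1 for TG against WT on ND, and 0 for KO against WT on ND, for KO against WT over both diets and for HFD against ND over 3 genotypes. With only genes of a mean of at least 2, of which 30 were members, the counts were 2 for KO against WT on ND, 2 for KO against WT on HFD, 2 for HFD against ND in KO and 1 for the diet effect in KO minus that in WT, with fewer genes tested. Quantile normalization gave 0 for KO against WT on ND, and a prior variance that follows the mean gave 1 for KO against WT on HFD. With WT HFD replicate 1 and TG HFD replicate 2 both left out, the count was 1 for TG against WT on HFD and 2 for KO against WT over both diets. The cause of these changes was not tested. With 1 array left out in turn, the counts for TG against WT ran from 0 to 2 on ND, 1 to 3 on HFD and 4 to 5 over both diets. For KO against WT they were 0 on ND, 0 to 2 on HFD and 1 to 2 over both diets. For HFD against ND they ran from 0 to 1 in WT, were 1 in KO and 0 in TG, and ran from 1 to 2 over 3 genotypes. For the diet effect they were 0 to 1 in KO minus WT and 0 in TG minus WT. No paired analysis was possible because replicate numbers were given in accession order and pair no animals. With the compared arrays alone no separate value exists for the mean of 3 genotypes, which uses all arrays.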
